A study of Mus musculus with 28 samples.

Results

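Spi1, Irf8, Gfi1, Id2, Nfil3, Egr2, Zeb2 and Runx1 encode 8 nuclear factors known for roles in the choice of blood cells between myeloid and lymphoid fates. They were taken by gene symbol from the RNA-seq table of 55450 genes, and the contacts of their promoter fragments were taken from 4 Promoter Capture Hi-C (PCHi-C) lists. All 8 were among the 16415 genes tested, although Nfil3 reached the filter on mean expression through the induced cells alone. All samples came from C10, a line of mouse Pre-B cells that was derived from HAFTL and carries a CEBPalpha-ER transgene, in which rat C/EBPα is fused to the hormone-binding domain of the estrogen receptor. Every group, the uninduced one included, carried this transgene. The cells were uninduced (0h) or had been given β-estradiol, IL-3 and CSF-1 for 1h, 12h or 48h. There were 3 RNA-seq libraries at each time, 12 in all, and 1 PCHi-C list at each time, made from 2 merged replicates. The cells are a single line, and no line without the transgene was compared. Since β-estradiol, IL-3 and CSF-1 were given together, their effects and that of the transgene cannot be told apart here. The libraries are labelled as biological replicates, and the study reports that technical replicates were merged. It does not state whether the biological replicates were separate cultures. The p-values measure the spread between these libraries, which may not be that between cultures.

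On the mouse genome (GRCm38, gene annotation of the same build) the protein-coding genes lie at chr2:91082390-91115756 (Spi1, plus strand), chr8:120736358-120756694 (Irf8, plus), chr5:107716657-107726036 (Gfi1, minus), chr12:25093799-25097140 (Id2, minus), chr13:52967209-52981073 (Nfil3, minus), chr10:67535475-67542188 (Egr2, plus), chr2:44983632-45117395 (Zeb2, minus) and chr16:92601466-92826149 (Runx1, minus).

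C/EBPα acts on myeloid genes together with PU.1, the ETS-family product of Spi1, whose dose is known to matter in the choice between B cells and macrophages. IRF8 binds DNA mostly with a partner such as PU.1 and is needed for monocytes and dendritic cells, whereas GFI1, a zinc finger repressor, is known for its part in granulocytes and lymphoid cells. ID2 lacks a DNA-binding domain and holds E proteins away from DNA, EGR2 is an early-response activator of the macrophage programme, NFIL3 is a basic leucine zipper repressor, ZEB2 represses through E-boxes, and RUNX1 with its partner CBFβ is required for the emergence of blood cells.

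The labelled cell type was checked against marker genes. The summed TPM (a level corrected for transcript length and relative to all RNA of the library) of 12 Pre-B markers went from between 306 and 346 at 0h to between 30.0 and 41.9 at 48h, and that of 8 macrophage markers from between 3.36 and 4.61 to between 616 and 753. The sum of 9 granulocyte markers was at most 0.54 at 0h, between 9.64 and 17.0 at 12h and between 1.85 and 4.54 at 48h, with Elane and Mpo among the 6 that did not reach the filter. The macrophage sum at 48h came mostly from Mmp12 (mean 491 TPM) and Lyz2 (mean 109 TPM), while Adgre1 was at most 0.29 TPM. The sums of the dendritic cell, T cell and erythroid markers were at most 0.45, 0.18 and 0.11 in any library. Their part in the results below was not tested. In bulk RNA, a change in the share of cells that express a gene and a change per cell cannot be told apart.

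The 20 most abundant transcripts, mainly ribosomal RNA, held 86.8% to 94.2% of a library's TPM. On the deposited scale the median of all genes tested differed from 0h by 0.59 at 1h, 0.34 at 12h and -0.18 at 48h (log2), and after median-of-ratios scaling by 0.02, 0.07 and 0.08. With TPM rescaled without those 20 transcripts it still differed by 0.20 at 1h. Differences below are log2 differences of TPM + 0.1 from limma with Benjamini-Hochberg adjusted p-values over all genes tested, given on the deposited scale and, as scaled values, after median-of-ratios scaling. A gene is said to have risen or fallen only where it passed an adjusted p of 0.05 in the same direction on both scales.

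In uninduced cells Irf8 had the highest level of the 8, at 18.9 ± 1.01 TPM (SD, n = 3), above the mean level of 95.2% of the genes tested. Zeb2 at 8.39 ± 2.23 TPM, Spi1 at 7.81 ± 0.95 TPM and Runx1 at 6.93 ± 1.66 TPM came next and lay within each other's spread. Egr2 followed at 1.83 ± 0.81 TPM, then Gfi1 at 0.52 ± 0.23 TPM and Id2 at 0.42 ± 0.07 TPM, whose libraries overlapped, and Nfil3 was listed at 0 in each library. At 48h the order had changed to Zeb2 at 44.2 ± 3.83 TPM, Spi1 at 28.4 ± 4.45 TPM, then Irf8 at 15.9 ± 6.41 TPM and Runx1 at 15.8 ± 1.49 TPM with overlapping libraries. Id2 at 3.24 ± 0.76 TPM and Egr2 at 2.68 ± 0.21 TPM also overlapped, above Nfil3 at 1.70 ± 0.58 TPM and Gfi1 at 0.23 ± 0.04 TPM.

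**Figure D1:**
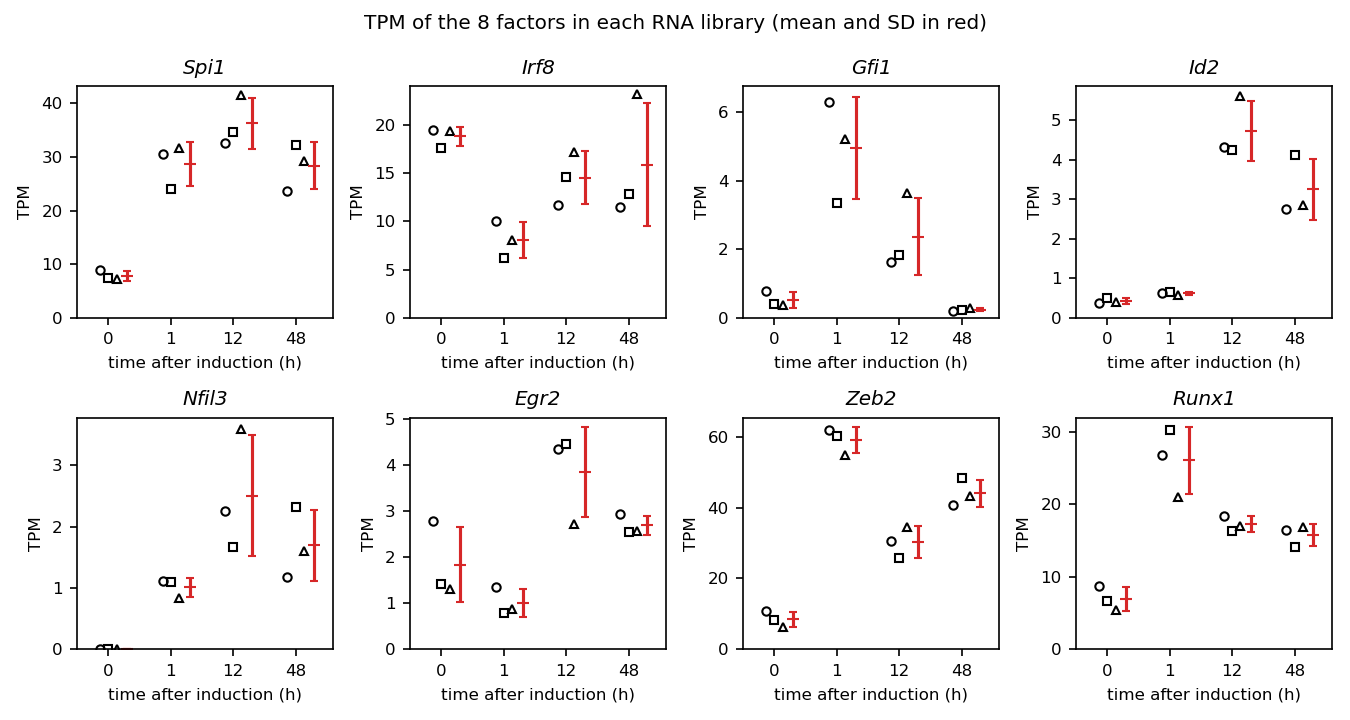
TPM of each factor (y axis, linear from 0, its own range in each panel) against time after induction (x axis, in h) in the 12 RNA libraries; symbols are replicates 1 (circle), 2 (square) and 3 (triangle), and red bars are the mean ± SD of 3 libraries. Zeb2, Spi1 and Runx1 were above all uninduced libraries from 1h on, Id2 was near 0.5 TPM until 1h and above 2 TPM later, and Gfi1 had its highest mean at 1h and its lowest at 48h.

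Spi1 rose within 1h and stayed high. Its TPM were 8.9, 7.37 and 7.15 in the 0h libraries, 30.51, 23.94 and 31.6 at 1h, 32.61, 34.64 and 41.53 at 12h, and 23.56, 32.32 and 29.31 at 48h. No induced library overlapped the uninduced ones. The difference from 0h was 1.86 ± 0.18 (SE) at 1h (adjusted p = 6.13e-05, scaled 1.20), 2.20 ± 0.18 at 12h (adjusted p = 5.39e-06, scaled 1.87) and 1.84 ± 0.18 at 48h (adjusted p = 7.09e-06, scaled 2.26). Between 1h and 12h it was 0.34 (adjusted p = 0.21), and 0.66 when scaled (adjusted p = 0.0081). From 12h to 48h the sign depended on the scale, at -0.36 as deposited and 0.39 when scaled (adjusted p = 0.15 and 0.081).

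Irf8, whose product often binds DNA with PU.1, fell at 1h and rose from there to 12h. Its TPM were 19.49, 17.68 and 19.38 at 0h, 10.01, 6.23 and 8.04 at 1h, 11.74, 14.6 and 17.27 at 12h, and 11.52, 12.89 and 23.24 at 48h. All 1h libraries lay below all 0h libraries, whereas the 48h libraries lay on both sides of them. Irf8 fell at 1h by 1.23 ± 0.27 (adjusted p = 0.0074, scaled -1.88, adjusted p = 0.00039) and then rose from 1h to 12h by 0.85 ± 0.27 (adjusted p = 0.042, scaled 1.16, adjusted p = 0.0040). The rise was lost on the deposited scale in 8 of the 12 fits that left out 1 library, with adjusted p up to 0.15, and without the replicate 3 libraries (adjusted p = 0.10). At 12h the difference from 0h was -0.39 (adjusted p = 0.30), or -0.72 when scaled (adjusted p = 0.034). At 48h it was -0.32 (adjusted p = 0.38), with the sign turned when scaled (0.10, adjusted p = 0.76), and without replicate 3 of 48h, the library at 23.24 TPM, it was -0.62 (adjusted p = 0.042). From 12h to 48h the difference was 0.07 (adjusted p = 0.87), and 0.82 when scaled (adjusted p = 0.025). Gm20388, a gene model that spans Irf8 on the same strand, had between 0.51 and 2.15 TPM, and reads shared between both could have been split.

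Gfi1 rose at 1h and fell again between 12h and 48h. Its TPM were 0.78, 0.4 and 0.37 at 0h, 6.3, 3.34 and 5.23 at 1h, 1.62, 1.83 and 3.65 at 12h, and 0.19, 0.23 and 0.27 at 48h. Each 1h and 12h library was above every 0h library, and each 48h library was below them. Gfi1 rose at 1h by 3.05 ± 0.36 (adjusted p = 0.00025, scaled 2.43), was still higher than 0h at 12h by 1.97 ± 0.36 (adjusted p = 0.0019, scaled 1.67), and fell from 12h to 48h by 2.82 ± 0.36 (adjusted p = 0.00015, scaled -2.22). The difference between 48h and 0h did not pass, at -0.85 ± 0.36 (adjusted p = 0.082, scaled -0.55, adjusted p = 0.17). Without the replicate 3 libraries the difference at 12h was 1.46 (adjusted p = 0.068). At 1h, where Gfi1 had its highest mean, the granulocyte marker sum was between 0.35 and 0.64 TPM, and its higher sum at 12h came mostly from Camp (mean 8.69 TPM). A noncoding gene on the opposite strand, A430072P03Rik, had at most 0.38 TPM.

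Id2 rose late. Its TPM were 0.36, 0.5 and 0.39 at 0h and 0.61, 0.65 and 0.57 at 1h, against 4.33, 4.25 and 5.6 at 12h and 2.76, 4.12 and 2.85 at 48h. The 1h libraries did not overlap those of 0h, but the difference was 0.47 ± 0.22 (adjusted p = 0.15), near the shift of all genes, and its sign turned when scaled (-0.08, adjusted p = 0.85). Id2 was higher than 0h by 3.22 ± 0.22 at 12h (adjusted p = 1.5e-06, scaled 2.91) and by 2.68 ± 0.22 at 48h (adjusted p = 2.05e-06, scaled 3.10). It rose from 1h to 12h by 2.76 ± 0.22 (adjusted p = 1.17e-05, scaled 2.99). From 12h to 48h it was -0.54 (adjusted p = 0.082), and 0.19 when scaled (adjusted p = 0.56).

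Nfil3 was listed at 0 in the 3 uninduced libraries, so no fold against 0h is given. Its TPM were 1.11, 1.09 and 0.83 at 1h, 2.26, 1.66 and 3.6 at 12h, and 1.17, 2.32 and 1.6 at 48h. Each of the 9 induced libraries was above 0, and since the gene reached the filter through them alone, no test against 0h is given. Between 1h and 12h it rose by 1.17 ± 0.32 (adjusted p = 0.023, scaled 1.45, adjusted p = 0.0028), a call that was lost on the deposited scale in 5 of the 12 fits without 1 library (adjusted p up to 0.076), and without the replicate 3 libraries (adjusted p = 0.23).

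Egr2 rose between 1h and 12h, and its differences from 0h depended on the scale. Its TPM were 2.77, 1.42 and 1.31 at 0h, 1.34, 0.79 and 0.87 at 1h, 4.35, 4.46 and 2.71 at 12h, and 2.93, 2.55 and 2.57 at 48h. Replicate 1 was the highest of the 0h libraries and the 12h and 48h libraries overlapped them only through it. Egr2 rose from 1h to 12h by 1.84 ± 0.31 (adjusted p = 0.0016, scaled 2.11, adjusted p = 0.00069). Against 0h no difference passed on both scales without a replicate block. It was -0.77 at 1h (adjusted p = 0.090, scaled -1.36, adjusted p = 0.019), 1.07 at 12h (adjusted p = 0.023, scaled 0.75, adjusted p = 0.095) and 0.60 at 48h (adjusted p = 0.15, scaled 1.01, adjusted p = 0.021). Leaving out replicate 1 of 0h gave 0.92 at 48h on the deposited scale (adjusted p = 0.025).

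Zeb2 had the highest level of the 8 at 1h and at 48h. Its TPM were 10.66, 8.31 and 6.21 at 0h, 61.95, 60.36 and 55.07 at 1h, 30.68, 25.71 and 34.5 at 12h, and 40.85, 48.36 and 43.3 at 48h. None of the 4 groups of libraries overlapped another. Zeb2 rose at 1h by 2.83 ± 0.20 (adjusted p = 6.33e-06, scaled 2.18), fell from 1h to 12h by 0.97 ± 0.20 (adjusted p = 0.0047, scaled -0.65) and rose again to 48h by 0.55 ± 0.20 (adjusted p = 0.048, scaled 1.30, adjusted p = 5.94e-05). On the deposited scale the last rise was lost in 9 of the 12 fits without 1 library (adjusted p up to 0.15). At 48h it stood 2.41 ± 0.20 above 0h (adjusted p = 1.64e-06, scaled 2.83). Zeb2os, an antisense gene that overlaps Zeb2 near its start, had between 0.37 and 1.68 TPM at 0h, between 3.99 and 4.98 at 1h, between 1.44 and 3.43 at 12h and between 2.92 and 6.05 at 48h. The library kit as named does not mark strand, so reads of the shared stretch cannot be told apart.

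Runx1 was raised throughout. Its TPM were 8.71, 6.67 and 5.42 at 0h, 26.78, 30.26 and 21.03 at 1h, 18.42, 16.34 and 16.92 at 12h, and 16.4, 14.06 and 16.83 at 48h. Every induced library was above every uninduced one, and the 1h libraries were above those of 12h and 48h. Runx1 rose at 1h by 1.90 ± 0.20 (adjusted p = 9.70e-05, scaled 1.25), and was higher than 0h by 1.33 ± 0.20 at 12h (adjusted p = 0.00044, scaled 0.99) and by 1.20 ± 0.20 at 48h (adjusted p = 0.00041, scaled 1.61). Between 1h and 12h Runx1 was at -0.58 (adjusted p = 0.057, scaled -0.25, adjusted p = 0.34), and from 12h to 48h -0.13 (adjusted p = 0.65), with the sign turned when scaled (0.62, adjusted p = 0.021).

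Nfil3 is left out of the following counts against 0h, since it passed the filter through the induced libraries alone, and 7 factors remain. At 1h, 4 of the 7 factors had risen on both scales and 1 had fallen, where 5.43% of all genes tested had risen and 1.37% had fallen. At 12h 5 factors were higher than 0h and 0 lower, against 16.0% and 7.81% of all genes. At 48h 4 were higher and 0 lower, against 15.9% and 21.8%. By limma at an unadjusted p under 0.05, 0 factors were lower at 12h and 1 (Gfi1) at 48h on the deposited scale, and 1 (Irf8) and 0 when scaled. With Nfil3 counted, the adjusted calls on the deposited values alone were 5 higher and 1 lower at 1h (24.1% and 1.41% of all genes), 7 and 0 at 12h (22.3% and 7.82%), and 5 and 0 at 48h (15.9% and 27.2%). On the scaled values alone they were, again with Nfil3, 5 and 2 at 1h (5.43% and 4.87%), 6 and 1 at 12h (16.0% and 14.4%), and 6 and 0 at 48h (24.6% and 21.9%). From 1h to 12h 4 of the 8 factors rose and 1 fell (6.91% and 8.79% of all genes), and from 12h to 48h 1 rose and 1 fell (4.06% and 11.9%). As deposited these were also 4 and 1 (6.98% and 15.0%), then 1 and 1 (4.1% and 31.7%), and when scaled 5 and 1 (11.3% and 8.79%), then 3 and 1 (10.6% and 11.9%). Since the comparisons with 0h share the same uninduced libraries, they are not independent of each other.

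**Figure D2:**
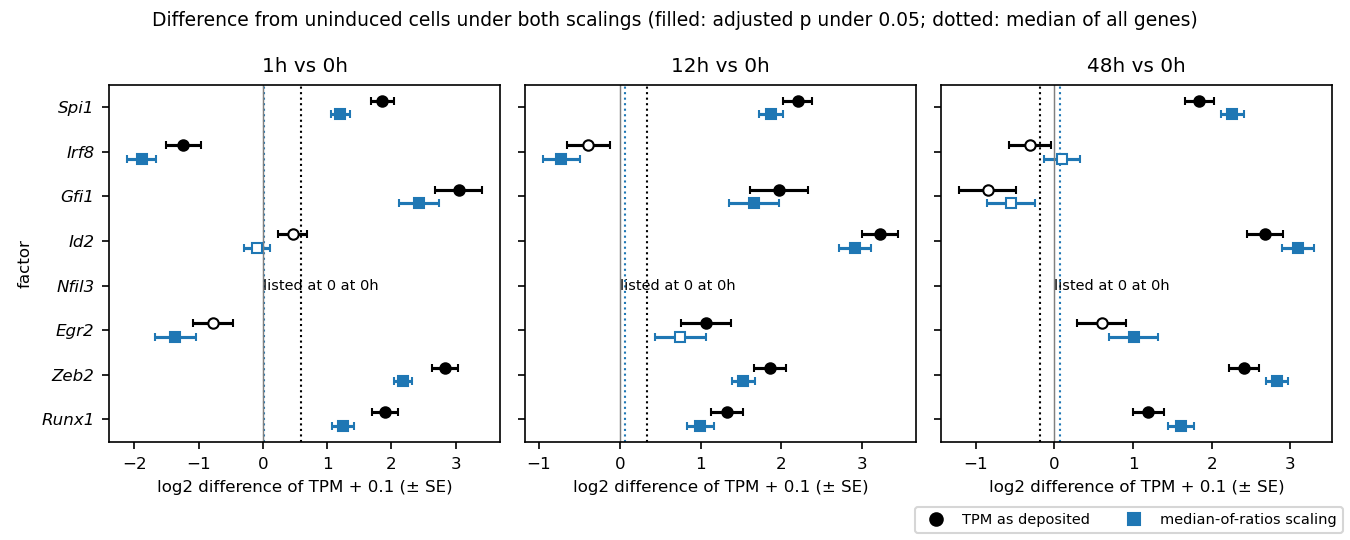
Log2 difference of TPM + 0.1 from 0h (x axis, ± SE from limma, 3 libraries against 3) for each factor (y axis) at 1h, 12h and 48h, as deposited (black circles) and after median-of-ratios scaling (blue squares); filled symbols passed an adjusted p of 0.05, and dotted lines mark the median of all genes tested. Spi1, Zeb2 and Runx1 sit to the right of 0 at each time on both scales, Irf8 sits to the left at 1h, and Nfil3 has no fold because it was listed at 0 at 0h.

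Partners and paralogs of the factors were followed as a list of 32 genes, of which 29 passed the filter (Id4, Hlf and Egr4 did not). Id1 was listed at 0 in the uninduced libraries and passed the filter through the induced ones alone, so it is left out here. At 48h 4 of the other 28 had risen and 7 had fallen on both scales, beside 15.9% and 21.8% of all genes tested, shares close to those of the list. The median difference of the 28 was -0.43 beside -0.18 for all genes (scaled -0.03 beside 0.08). Among the 28, Spic, Batf3 and Runx2 had 0h means under 0.1 TPM, so they too reached the filter through the induced libraries. The IRF family members Irf1 (3.09 ± 0.23, adjusted p = 9.64e-07), Irf2 (1.42 ± 0.19) and Irf5 (1.32 ± 0.22) rose, while Irf4, the paralog nearest to Irf8, was at -0.37 (adjusted p = 0.37, scaled 0.01). Spib, the lymphoid ETS factor closest to PU.1, fell by 2.46 ± 0.32 (adjusted p = 6.61e-05, scaled -2.26). Among the targets of ID proteins, Tcf3, which encodes the E2A proteins of B cells, fell by 3.27 ± 0.21 (adjusted p = 2.84e-07, scaled -2.87), whereas Tcf4 was at 0.50 (adjusted p = 0.089, scaled 0.91, adjusted p = 0.00044). Id3 fell by 2.76 ± 0.82 (adjusted p = 0.018), and Id1 was between 0.14 and 0.59 TPM at 48h. Of the RUNX genes Runx2, 1 of the 4 counted as risen, had at most 0.11 TPM at 0h and 0.3 to 0.43 TPM at 48h. No fold is given for Runx2, since the filter selected it by its induced values. Runx3 fell by 1.72 ± 0.22 (adjusted p = 5.36e-05), and Cbfb, which encodes the shared partner, was at -0.31 (adjusted p = 0.28, scaled 0.10). Among corepressor genes Hdac2 fell by 2.12 ± 0.23 and Ctbp1 by 1.36 ± 0.24 on both scales, and Kdm1a passed as deposited alone (-0.76, scaled -0.35, adjusted p = 0.094). The PAR bZIP gene Dbp, which binds sites like those of NFIL3, fell (adjusted p = 0.0033, scaled difference -1.26 ± 0.32), and the EGR corepressor genes Nab1 and Nab2 did not pass. At 1h, 0 of the 28 had risen and 3 had fallen (Irf5, Gfi1b and Id3) on both scales, beside 5.43% and 1.37% of all genes. At an unadjusted p under 0.05 by limma, 11 were higher and 4 lower as deposited, and 2 and 12 when scaled.

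**Figure D3:**
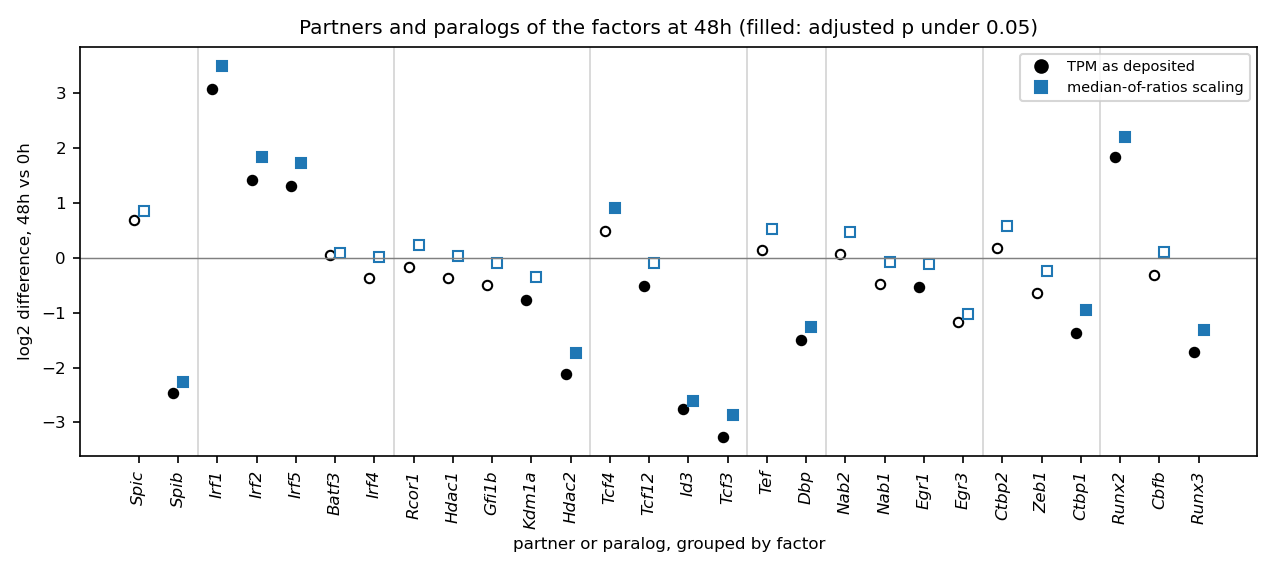
Log2 difference of TPM + 0.1 between 48h and 0h (y axis) for 28 partners and paralogs (x axis, without Id1), grouped from left to right by Spi1, Irf8, Gfi1, Id2, Nfil3, Egr2, Zeb2 and Runx1; black circles are TPM as deposited, blue squares after median-of-ratios scaling, and filled symbols passed an adjusted p of 0.05. Irf1, at 3.09, and Tcf3, at -3.27, are the extremes as deposited.

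Of 18 myeloid genes that PU.1, IRF8 and C/EBP factors are known to drive, some of them also macrophage markers, 17 were tested (Csf3r was not). On both scales 5 of them had risen at 1h, 13 at 12h and 16 at 48h, and 0 had fallen, where 5.43%, 16.0% and 15.9% of all genes tested had risen. At an unadjusted p under 0.05 by limma, 0 were lower at any of these times as deposited, and 6, 1 and 0 were lower when scaled. The 5 genes at 1h were Csf2rb, Cd14, Cybb, Ncf1 and Mpeg1. Cd14 was listed at 0 at 0h and passed the filter through the induced libraries alone. Without it 4, 12 and 15 of 16 had risen, and the median difference at 48h was 3.56 (scaled 3.98). Itgam (mean 0.05 TPM at 0h) and Fcgr1 (mean 0.0567 TPM at 0h) stayed among the 16. Their 0h means were under the filter level of 0.1 TPM, so they too reached the filter through the induced libraries. Csf1r, which encodes the receptor for CSF-1, rose by 5.69 ± 0.38 at 48h (adjusted p = 3.81e-07), Cybb, a subunit of the phagocyte oxidase, by 5.74 ± 0.20 (adjusted p = 2.57e-09), and Lyz2, lysozyme, by 6.16 ± 0.19 (adjusted p = 1.41e-09). Ncf4, another oxidase subunit, was at 0.23 (adjusted p = 0.49, scaled 0.64, adjusted p = 0.0501).

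Genes with the most similar course were found by Pearson correlation of log2(TPM + 0.1) over the 12 libraries among genes with a mean of at least 5 TPM, as a description of libraries that share their scaling. Spi1 was most like Atrnl1 (r = 0.986), Lyn (r = 0.985) and Gm26809 (r = 0.983), and Nfil3 like Gm48368 (r = 0.987), Lyn (r = 0.985) and Atrnl1 (r = 0.985). Since Nfil3 was listed at 0 at 0h and passed the filter through the induced libraries alone, its correlations include that selected step from 0. Id2 was most like Lyz2 (r = 0.992), Sla (r = 0.992) and Anxa4 (r = 0.991). Irf8 was most like Zfp36l2 (r = 0.900), the B cell receptor gene Cd79b (r = 0.861) and Nrros (r = 0.846). For Zeb2 these were Trib1 (r = 0.980), Mbnl1 (r = 0.977) and Ugcg (r = 0.972), for Gfi1 Nploc4, Txnrd1 and Plagl2 (r between 0.967 and 0.968, scaled 0.772, 0.947 and 0.901), for Runx1 Pcgf5, Gm47164 and Gm48271 (r between 0.972 and 0.975), and for Egr2 Dusp7 (r = 0.963), Ceacam1 (r = 0.896) and Evl (r = 0.879). Apart from Gfi1, the scaled correlations of these genes were between 0.908 and 0.993.

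PCHi-C ligates DNA that is close in the nucleus after cutting with HindIII and enriches for fragments that hold promoters, the baits. A contact below is a pair of a bait and another fragment in a list. The lists give no value that can be compared between times, so only presence was used, with no test. In the order of the time course, 7 of the factors had 117, 105, 129 and 120 contacts in all, and Gfi1 had none. Its 4 start sites lie in 1 HindIII fragment (mm10, chr5:107717388-107732156) that is in none of the lists. The lists hold called contacts, so a fragment that was not captured and one without a called contact cannot be told apart. Of 208 contacts seen in any list, 50 were in all 4, 49 were at 48h but not at 0h and 46 at 0h but not at 48h. These counts were not made over all baits, so they cannot be read as particular to these factors. The share of the 0h contacts that was listed again was 61.5% at 1h (72 of 117, exact 95% interval 52.1 to 70.4%), 62.4% at 12h and 60.7% at 48h, beside 58.9%, 54.3% and 56.1% over all baits. Neighbouring fragments of 1 bait share reads and depth, and the intervals cover counting error alone. The median number of contacts of the 22178 genes with 1 bait was 4 at 0h and 5 later, with an upper quartile of 12.

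**Figure D4:**
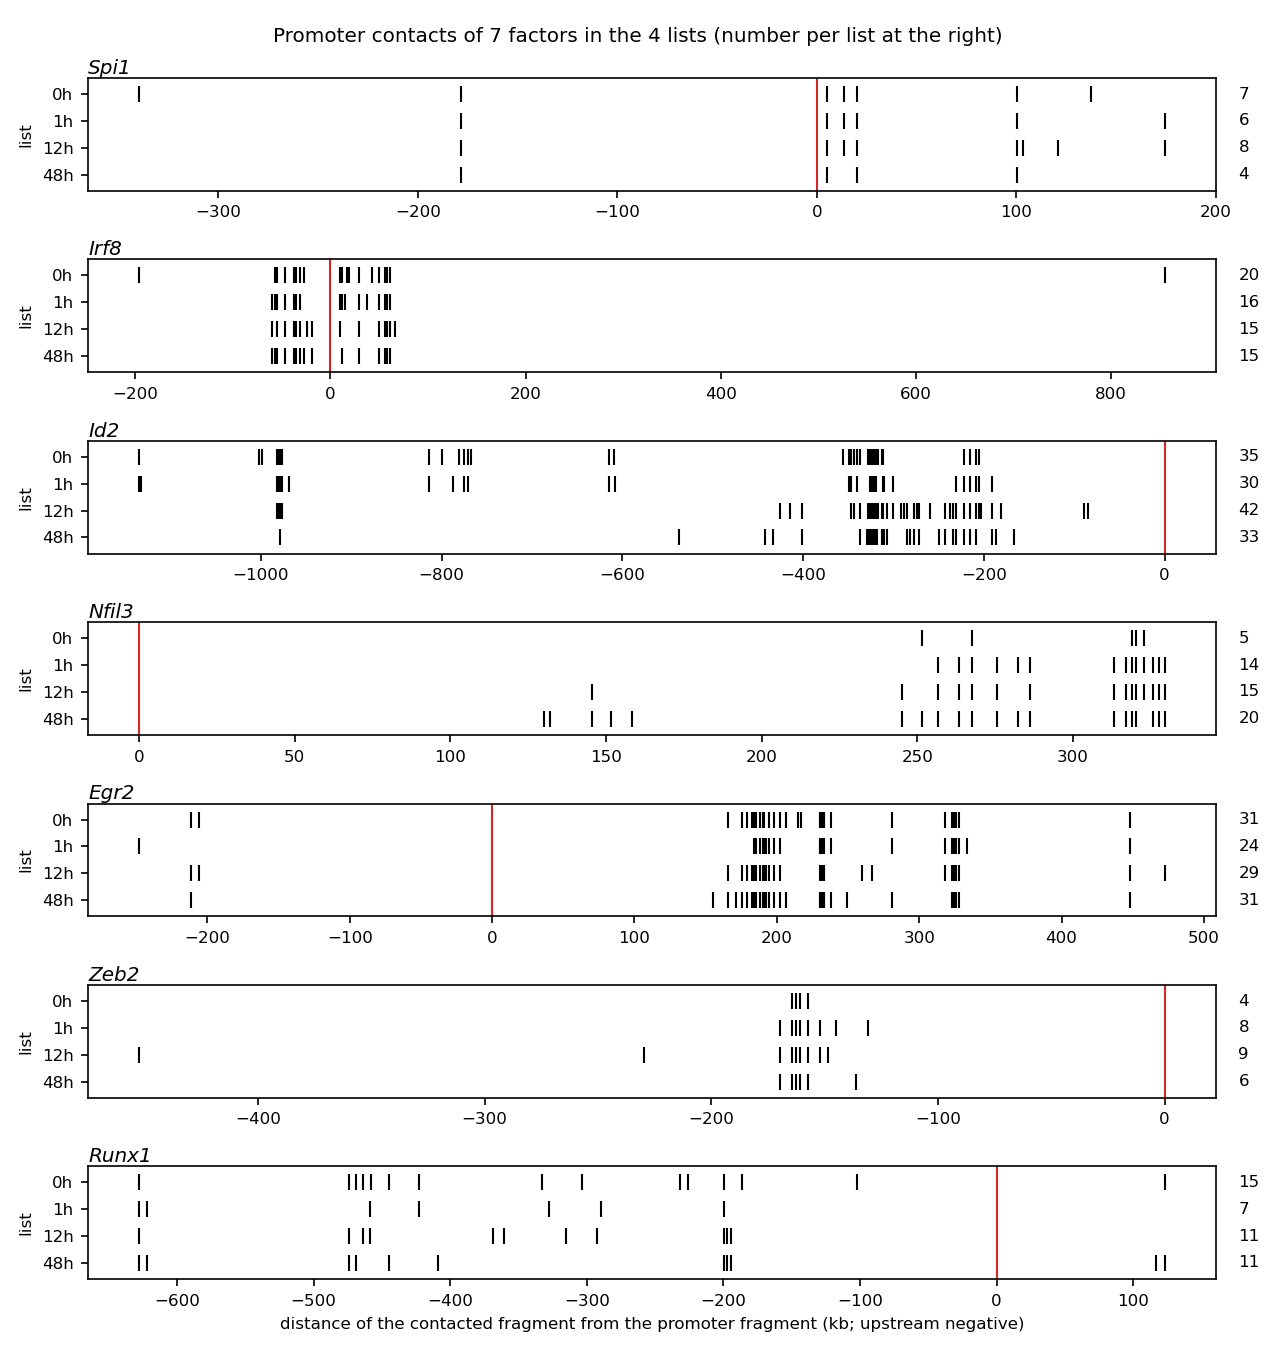
Contacts of 7 factors (panels) as ticks at their distance from the promoter fragment (x axis, in kb, upstream of the gene negative, its own range in each panel) in the lists of 0h, 1h, 12h and 48h (rows), with the number of contacts in each list at the right; a contact of Id2 with another chromosome at 48h is counted but not drawn. Nfil3 gains ticks downstream from 5 at 0h to 20 at 48h, those of Egr2 recur in each list, and the farthest ones of Id2 thin out.

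Nfil3, listed at 0 in uninduced cells, had 5 contacts from its bait (chr13:52975363-52986009) in the 0h list, and 14, 15 and 20 in the 1h, 12h and 48h lists. The gain of 15 at 48h was larger than the change in 97.1% of the genes with 1 bait, and the gain of 9 at 1h larger than in 95.5%. With fragments within 10 kb of each other counted as 1, Nfil3 had 3, 2, 3 and 3 contacts. All 21 fragments lay downstream of the gene, in 3 stretches. Between 310 and 330 kb there were 3 contacts at 0h and 8, 8 and 7 later, between 240 and 290 kb 2 at 0h and 6, 6 and 8 later, and between 130 and 160 kb none until 1 at 12h and 5 at 48h. The last stretch reached into Auh, and 9 contacts were in each induced list and not at 0h.

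Egr2 had 31, 24, 29 and 31 contacts, and 27 of the 31 at 0h were listed at 48h. The bait (chr10:67529298-67536460) holds 2 of the 7 annotated start sites, and the other 5 are in the next fragment, which is not listed. Most contacts lay 150 to 250 kb downstream, with 22, 15, 18 and 24 in the 4 lists, and another stretch at 310 to 340 kb had 5, 6, 5 and 4. The promoter fragment of Rtkn2, 448.0 kb downstream, was in all lists, while that of Nrbf2, 247.9 kb upstream, was in the 1h list alone.

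Id2 (bait chr12:25086065-25096636) had 35, 30, 42 and 33 contacts, more than 92.8% to 97.6% of genes with 1 bait, but 13 of the 35 at 0h were listed at 48h. With fragments within 10 kb counted as 1 the numbers were 8, 9, 5 and 10, with the lowest at 12h. All on its own chromosome were upstream. Contacts 760 to 820 kb away numbered 6 at 0h and 4 at 1h and were absent from the 12h and 48h lists, and those beyond 960 kb numbered 7, 7, 4 and 1. Between 220 and 310 kb there were 1, 3, 14 and 10. The stretch at 310 to 360 kb was listed throughout, with 16, 10, 12 and 12 contacts, 6 of which were in all 4 lists. Id2 RNA was near 0.5 TPM at 0h and 1h and above 2 TPM at 12h and 48h.

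Zeb2 was contacted from 1 upstream start site (bait chr2:45115778-45118581), since the fragments that hold 28 of its 29 annotated starts are not listed. It had 4, 8, 9 and 6 contacts. The 4 of 0h, 157.3 to 164.2 kb upstream, were in every list, and the farthest of these holds the start of Vis1. The fragment next to them, 169.8 kb upstream, was in the 3 induced lists and not at 0h. Runx1 was likewise baited at its distal promoter (chr16:92823896-92826631, 3 of 7 start sites). Its contacts numbered 15, 7, 11 and 11, and 6 of the 15 at 0h were listed at 48h. Those 627.7 and 199.9 kb upstream were in all 4 lists, 2 fragments beside the latter were added at 12h and 48h, and a fragment inside the gene, 123.0 kb downstream and next to the one with the proximal start sites, was in the 0h and 48h lists.

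Irf8 (bait chr8:120732907-120737243) had 20, 16, 15 and 15 contacts, and all but 2 of its 26 fragments lay within 70 kb. Within that range upstream contacts numbered 7, 7, 8 and 9 and downstream ones 11, 9, 7 and 6, and 10 were in all 4 lists. A fragment with the start of Cox4i1, 60.3 kb upstream, was in the induced lists, and the 0h list alone had the promoter fragment of Map1lc3b, 855.3 kb downstream. Spi1 (bait chr2:91080805-91084236, 2 of 4 start sites) had 7, 6, 8 and 4 contacts. Those in all lists were 2 fragments within Spi1 itself, the nearer one 5.3 kb downstream, and the promoter fragments of Madd, 100.4 kb downstream, and of Kbtbd4 and Ndufs3, 178.1 kb upstream. The fragment with the other 2 start sites of Spi1, 13.5 kb downstream, was listed at 0h, 1h and 12h but not at 48h, and that with the start of Nr1h3 and Acp2 at 12h alone.

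Promoter sequences of the members other than Spi1 were read from RefSeq (GRCm38.p6) and searched on both strands for 8 core motifs in the 250 bases before each start. The letters searched were TTGCNNAA for C/EBP, TTANGTAA for NFIL3, GAGGAAG for PU.1, TGTGGT for RUNX, CAGGTG for ZEB factors, GCGNGGGCG for EGR and AATCNCNGC for GFI1, beside an IRF element, and a match says only that the letters are present. Promoters inside the baits are printed for Nfil3, Zeb2 and Runx1, whose 1h libraries were all above those of 0h as deposited. The same was true of Id2, whose window inside its bait held no match and is not printed. Contacts were measured from these baits. The printed sequences run 5′ to 3′ on the minus strand, without bases after any annotated start, and with matches in capitals.
Nfil3 (chr13:52981074-52981289): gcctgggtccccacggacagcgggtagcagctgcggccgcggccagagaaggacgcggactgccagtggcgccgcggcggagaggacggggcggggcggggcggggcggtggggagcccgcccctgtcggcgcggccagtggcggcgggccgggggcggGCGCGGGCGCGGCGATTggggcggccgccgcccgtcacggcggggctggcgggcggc
Zeb2 (chr2:45117443-45117692): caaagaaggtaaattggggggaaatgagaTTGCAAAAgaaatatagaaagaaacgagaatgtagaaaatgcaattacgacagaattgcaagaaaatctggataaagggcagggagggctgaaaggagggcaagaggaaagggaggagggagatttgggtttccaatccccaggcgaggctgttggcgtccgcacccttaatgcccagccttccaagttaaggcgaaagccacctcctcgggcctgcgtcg
Runx1 (chr16:92826150-92826324): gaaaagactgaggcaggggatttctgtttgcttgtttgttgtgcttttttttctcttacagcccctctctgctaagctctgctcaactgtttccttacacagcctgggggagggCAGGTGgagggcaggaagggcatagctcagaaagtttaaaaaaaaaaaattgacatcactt
The whole 250-base window of Nfil3, longer than the stretch printed, held 81.6% G and C, where the median of the 32817 promoters was 52.4%. In Nfil3 the capitals are an EGR match running into a GFI1 match, which 4.7% and 3.2% of all promoters hold. In Zeb2 the capitals mark a C/EBP match, found in 9.6% of promoters, and in Runx1 a ZEB match, found in 17.2%. The 3 other Zeb2 promoters, outside the bait, each held a PU.1 match (10.6% of promoters), 2 of which overlap and share the match, and a promoter of Gfi1 held a C/EBP and a ZEB match. The proximal Runx1 promoter held an EGR match, 1 of 5 Egr2 windows a GFI1 match and the downstream Irf8 window a ZEB match. No motif searched was in the window of Id2 or in the Irf8 window inside the bait.

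Whole contacted fragments of 250 to 300 bases are printed for Egr2, as a contact present in all 4 lists (230.5 kb downstream), and for Id2, as a contact of the 12h list alone (204.5 kb upstream), on the plus strand with matches in capitals.
Egr2 (chr10:67763193-67763471): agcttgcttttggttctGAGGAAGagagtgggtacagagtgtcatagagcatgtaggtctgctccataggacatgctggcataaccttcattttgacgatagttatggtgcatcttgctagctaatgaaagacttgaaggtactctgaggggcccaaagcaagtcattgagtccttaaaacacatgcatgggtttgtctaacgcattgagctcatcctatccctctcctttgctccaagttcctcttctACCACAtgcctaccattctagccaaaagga
Id2 (chr12:25295759-25296011): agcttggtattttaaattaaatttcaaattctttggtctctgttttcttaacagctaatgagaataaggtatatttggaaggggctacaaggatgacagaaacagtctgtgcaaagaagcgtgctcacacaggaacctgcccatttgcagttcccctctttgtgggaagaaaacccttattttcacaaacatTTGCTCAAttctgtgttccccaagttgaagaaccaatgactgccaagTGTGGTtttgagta
The Egr2 fragment held a PU.1 and a RUNX match, and the Id2 fragment a C/EBP and a RUNX match. A further Egr2 fragment of this length, 233.1 kb downstream and in the 0h, 12h and 48h lists, held no match. Among 688 listed non-bait fragments of the same range of lengths, 10.8% held a PU.1, 21.5% a RUNX and 15.1% a C/EBP match.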

How the data were processed

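RNA-seq and PCHi-C of C10 cells at 4 times were used, and the Hi-C samples were not used here. The RNA values are TPM made by the authors, who trimmed reads with Trim Galore 0.6.2, aligned them to mm10 with HISAT2 2.1.0 and estimated TPM with RSEM. The study lists sequenced reads per library, which are not repeated here, and the reads behind a TPM cannot be recovered from it. The contacts are deposited CHiCAGO interactions (HiCUP, merged replicates). In the 0h list as deposited each contact has a CHiCAGO score, 5 or above, and the other lists hold other whole numbers whose unit is not given in the sources used here and which were not used. No column of per-sample values was left unused.

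Log2(TPM + 0.1) of the 16415 genes with a mean of at least 0.1 TPM was fitted with limma 3.58.1 (R 4.3.3) over the 12 libraries with a mean-variance trend and Benjamini-Hochberg adjustment at 0.05, and fitted again after median-of-ratios scaling. Adding 0.1 understates the change of low genes. On simulated data for 48h against 0h (16415 genes, 200 changed), 31.3% of genes changed by 1 on the log2 scale were called, 88.1% by 2 and 93.9% by 3, with 7 unchanged genes called. The changed genes were drawn from those with a mean of at least 1 TPM, with normal noise. In the data far more genes were called at 48h as deposited (2611 higher and 4466 lower). The simulated rates therefore do not give the share of real changes that was called. Baits are the first fragments of the listed contacts, and those of a factor are the baits that hold an annotated start site of it. Shares have exact 95% binomial intervals. The 8 members, the lists of partners, myeloid genes and cell markers, and the rule for similar genes (the 3 highest correlations) were chosen with earlier results of these data known. The text names these genes and those with a start in a contacted fragment. Of the lists at 48h on both scales, 11 of 12 Pre-B markers fell, beside 21.8% of all genes tested. Of the tested macrophage markers 7 of 7 were higher, or 6 of 6 without Msr1, beside 15.9% of all genes. Of the tested granulocyte markers 2 of 3 were higher, or 1 of 2 without S100a8. Msr1 and S100a8 were listed at 0 at 0h. For dendritic cells 0 of 1 tested markers passed, and no T cell or erythroid marker reached the filter. Itgam, Fcgr1, Mmp12 and Camp had 0h means under 0.1 TPM, so they also reached the filter through the induced libraries. Their calls and those of Msr1 and S100a8 were thus largely fixed by the filter. Csf1r, Cd68 and Lyz2 were the macrophage markers not selected in this way. Alternatives covered scaling, pseudocount, filter, variance trend, samples fitted, replicate block, call threshold, single libraries left out, and the definition of contacts. Promoter sequences came from RefSeq (GRCm38.p6), which matched 7 of the 8 symbols.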

Additional observations from a re-analysis of the deposited data

How the results depend on the processing

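Over the members, the fits without 1 library kept the direction and the side of the threshold in 443 cases, gained a call in 9, lost one in 26 and turned the sign in 2, and the other alternatives did so in 412, 24, 17 and 27 cases. These cases include Nfil3 against 0h, which the filter selected by its induced values. The number of members called between 1h and 12h was 3 in place of 5 with only the libraries of both times and with a fold over 2. Between 12h and 48h it was 2, against 4 with median-of-ratios scaling, 1 with no filter, 1 with no trend, 1 with a fold over 2, and 1 to 2 without 1 library. Of 29 partners, 3 in place of 5 were higher with a pseudocount of 1 and 6 in place of 10 were lower after rescaling without the 20 most abundant genes. Signs turned under median-of-ratios scaling, rescaling without those 20 genes and quantile normalization, in that order, for Irf8 at 48h (0.0995, 0.021, 0.0167) and, between 12h and 48h, for Spi1 (0.39, 0.20, 0.23), Nfil3 (0.20, 0.0093, 0.19), Egr2 (0.2581, 0.0701, 0.2133) and Runx1 (0.62, 0.42, 0.41). Under the first and last they turned for Id2 between 12h and 48h (0.19, 0.14) and at 1h (-0.0824, -0.2865). Irf8 between 12h and 48h was -0.07 without replicate 1 of 12h and -0.235 without replicate 3 of 48h, in a range of -0.235 to 0.268. The cause was not tested.

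Replicate numbers were not taken as pairs, since the correlations of same-numbered deviations were not all over 0.1 (-0.0123 to 0.257 over 18 pairs, different numbers -0.181 to 0.110). The replicate 3 libraries stood apart, with 0.0698 to 0.257 among themselves and -0.181 to -0.00587 with the others. Without them, chosen after seeing the data, 6, 5 and 5 members were called at 1h, 12h and 48h against 0h, Nfil3 among them each time. With them the numbers were 6, 7 and 5, again with Nfil3, and Gfi1 and Egr2 were the calls lost at 12h. Without replicate 3, 4 members were called from 1h to 12h and 2 from 12h to 48h, and Irf8 from 12h to 48h was -0.1027. With the number as a block, 1 member was called between 12h and 48h in place of 2 (Zeb2 lost, adjusted p = 0.0581 by limma), and 4 with the block and median-of-ratios scaling, an alternative chosen after seeing the data, with the signs and values of that scaling. Egr2 passed on both scales at 1h (adjusted p = 0.0477, scaled 0.0070) and 12h (0.0099, scaled 0.038).

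Counting contacted fragments within 10 kb as 1 gave 37, 30, 33 and 35 contacts, and a score of at least 10 gave 30 at 0h, by construction. Within 10 kb, 85.5%, 81.2% and 81.2% of the 0h contacts were listed at 1h, 12h and 48h, beside 83.8%, 79.9% and 78.3% over all baits. Counting error is largest at low levels such as those of Gfi1 and Nfil3, and cannot be estimated from TPM.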

Other observations

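Genes with a start site in a fragment contacted by a factor were looked up in the same fit, and were chosen by the contacts after these were seen. Rtkn2, whose promoter fragment was linked to that of Egr2 in all 4 lists, had means of 0.98, 0.62, 0.0967 and 0 TPM over the course, and fell at 12h by 2.32 on the log2 scale (limma adjusted p = 0.0014, scaled -2.49) while the contact stayed listed. It was listed at 0 in each 48h library. Cox4i1, contacted by Irf8 in the induced lists and encoding a subunit of cytochrome c oxidase, had means of 42.9, 46.3, 45.8 and 20.9 TPM, and fell at 48h (adjusted p = 0.0077 by limma, scaled difference -0.70 with adjusted p = 0.029).

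Gm33142, which starts in a fragment 46.5 kb upstream of Irf8 that was in all 4 lists, rose from 0.17 TPM at 0h to 1.34 at 12h (2.60, adjusted p = 0.0061, scaled 2.37) and 0.777 at 48h (1.72, adjusted p = 0.033, scaled 2.15). Madd, linked to Spi1 in all 4 lists, was at 5.39 TPM at 0h and 6.24 at 48h, a difference of 0.20 (adjusted p = 0.50, scaled 0.61, adjusted p = 0.019). Acp2, whose fragment was linked to Spi1 at 12h alone, had 0.153 TPM at 0h, 0.94 ± 0.65 (SD) at 12h and 0.22 at 48h. It rose at 12h by 1.87 (limma adjusted p = 0.017, scaled 1.60, adjusted p = 0.031), with uneven 12h libraries. Of the other genes looked up, Fnbp4, Kbtbd4, Ndufs3, Pacsin3, Map1lc3b, Nrbf2 and Vis1 did not pass on both scales against 0h at any time. Gm24239 passed at 48h but had a mean of 0 TPM at 0h, so the filter selected it by its induced values. The rest did not reach the filter. No relation between contacts and RNA was tested.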
